A study of Rattus norvegicus with 16 samples.

Results

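Reads from SRF chromatin immunoprecipitation were followed here at the regions that the authors' annotation assigned to Fam53c, Cacng7 and Eef1a1. These genes had been picked because their regions held fewer reads in oligodendrocytes (OL) than in oligodendrocyte precursor cells (OPC), so the OL and OPC values below are a description and carry no test. The annotation table held 4 such regions among its 848 consensus regions, 1 for Fam53c, 1 for Cacng7 and 2 for Eef1a1. They were set against the 42 other regions annotated as TTS, the class for a window around an annotated transcript end. All cells were wild-type (WT) primary rat cells from brain, purified as OPC by immunopanning and grown for 6 days in proliferation medium. The OPC group (SRF replicates 1 to 4) was fixed at that stage, and the OL group (SRF replicates 1, 2 and 4) was fixed on day 3 after the change to differentiation medium. Each stage also had 1 IgG control library, and 7 libraries held input chromatin. The labels used here state neither age nor sex of the animals, and cell identity was not checked, since chromatin bound by SRF holds no measure of marker expression.

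SRF (serum response factor) is a DNA-binding protein of the MADS family that recognises the CArG box, a short A- and T-rich element flanked by C and G. It acts with cofactors of the MRTF family, which respond to the pool of free actin, and of the ternary complex factor family, which respond to growth factor signalling. Its best known sites lie at or just upstream of the start of immediate early and cytoskeletal genes. Cacng7 encodes a transmembrane AMPA receptor regulatory protein, an auxiliary subunit related to calcium channel gamma subunits, and OPC carry AMPA receptors. Eef1a1 encodes the elongation factor that brings aminoacyl-tRNA to the ribosome. Fam53c belongs to the small FAM53 gene family.

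The name "transcript end" described these regions poorly. The Fam53c region (gene ENSRNOG00000020261, Rnor_6.0 chr18:27558188-27558685) lay 99 to 596 bp downstream of the annotated start of Fam53c, and its TTS label came from the end of a different gene, ENSRNOG00000052628, for which the files give no name. The Cacng7 region (gene ENSRNOG00000056257, chr1:64406396-64406692) lay 1247 to 1543 bp upstream of the start of Cacng7, and its TTS label also came from the end of a different gene. Both TTS regions were thus nearest to the start of the gene they were assigned to. The Eef1a1 regions (gene ENSRNOG00000009439) were annotated as lying between genes, with centres 3752 bp (chr8:85836839-85837293) and 4260 bp (chr8:85836464-85836652) downstream of the Eef1a1 start. A gap of 186 bp separated them, and no region of the consensus lay at the Eef1a1 promoter.

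Because the Fam53c region lay just inside the gene, its RefSeq promoter window is shown. It is taken from assembly GRCr8 (chr18:26638531-26638830, plus strand, 250 bases before to 50 after the RefSeq start), with the 1 exact CArG box in capitals.
Fam53c promoter: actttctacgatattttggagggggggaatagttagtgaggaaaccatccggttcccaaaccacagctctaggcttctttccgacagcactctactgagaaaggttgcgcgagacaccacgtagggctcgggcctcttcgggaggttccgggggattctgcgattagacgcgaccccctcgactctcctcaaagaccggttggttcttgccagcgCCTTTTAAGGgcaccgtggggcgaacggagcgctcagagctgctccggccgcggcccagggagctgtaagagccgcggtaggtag
The capitals lie 35 to 26 bases upstream of the RefSeq start. The CArG box was searched by exact match, and its pattern reads the same on both strands. Of all 33469 promoter windows of this length, 548 (1.64%) held 1 or more, as did 11 of 232 windows (4.74%) of genes with a reproducible SRF site in the promoter, meaning a peak in at least 2 SRF libraries and in neither IgG library. The match is a description of letters and not a mapped site. The peak positions are in another build, so the distance between the matched letters and the peak summit was not measured. The Eef1a1 window held no exact match, which says only that these letters are not in it, and the table holds no window for Cacng7.

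Sequencing depth sets how far the OL values can be read. OPC libraries held between 9054483 and 20303444 tags, OL replicate 1 held 12103611, and OL replicates 2 and 4 held 2394854 and 3363937. Tags within consensus regions numbered 26362 in OPC replicate 1 and 26206 in OL replicate 1, which makes that pair nearly matched, but 4472 and 7206 in OL replicates 2 and 4. OL replicate 2 also stood apart in the fragment length that MACS estimated, 296 bp against 72 to 86 bp in the other SRF libraries. The share of tags in regions ran from 0.116 to 0.379% in OPC and from 0.187 to 0.217% in OL. Fewer cells with SRF bound at a site and less SRF per cell cannot be told apart in such bulk libraries. Replicates were independent cell preparations, per the labels' protocols.

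Peaks at Fam53c and Cacng7 were called by the authors in every OPC library and in 1 of 3 OL libraries, and the summits fell close together. OL replicates 2 and 4 held 47 and 172 peaks in all, against 436 in OL replicate 1 and 232 to 714 in OPC. A missing call there is therefore not read as a loss, and the share of all 848 regions with this pattern was not counted. At Fam53c the summit, the point of highest pileup, stood 226, 270, 221 and 244 bp downstream of the start in OPC replicates 1 to 4. In OL replicate 1 it stood at 221 bp, the same position as in OPC replicate 3. The range of these 5 summits was 49 bp. OPC replicate 3 had a second, smaller peak in the region, 460 bp downstream of the start, with a pileup of 10 fragments against 19 at the first. At Cacng7 the summits of OPC replicates 1 to 4 stood 1375, 1356, 1365 and 1356 bp upstream of the start, and that of OL replicate 1 stood 1341 bp upstream, a range of 34 bp. The summit of OL replicate 1 thus lay within 49 bp of every main OPC summit at Fam53c and within 34 bp at Cacng7.

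**Figure D1:**
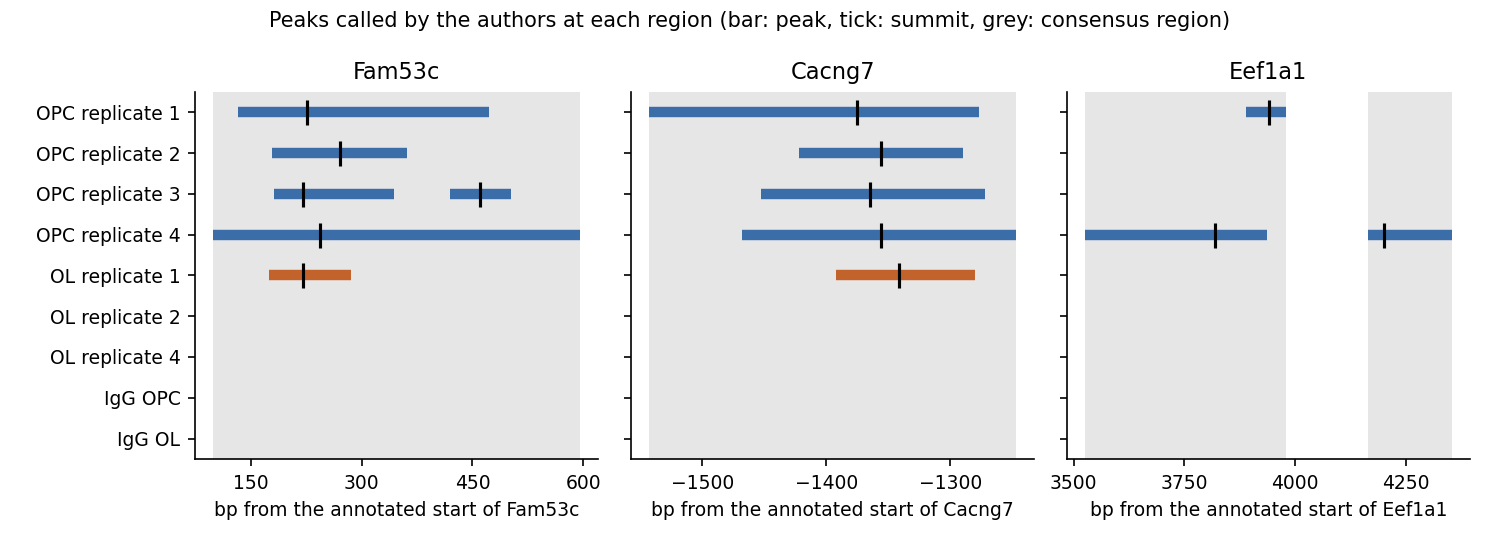
Peaks called by the authors in each library (rows) at the regions of the 3 genes, in bp from the annotated start of each gene (horizontal axis, negative upstream). Bars are peaks, ticks are summits and grey areas are the consensus regions; Fam53c and Cacng7 have a peak in 4 OPC libraries and in OL replicate 1, Eef1a1 in OPC libraries alone, and the IgG rows are empty.

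The enrichment over input that MACS reported was moderate and differed widely between libraries. At Fam53c the fold enrichment, the authors' ratio of pileup to the local input background, was 12.0, 7.23, 6.32 and 20.4 in OPC replicates 1 to 4 and 7.02 in OL replicate 1. Ranked by this ratio within its own library, the peak was number 138 of 432, 163 of 232, 331 of 383 and 136 of 714 in OPC replicates 1 to 4 and 328 of 436 in OL replicate 1. The value of OL replicate 1 lay between those of OPC replicates 3 and 2. At Cacng7 the fold enrichment was 11.8, 7.41, 15.7 and 30.2 in OPC replicates 1 to 4 and 5.29 in OL replicate 1. That peak was number 146 of 432, 155 of 232, 76 of 383 and 62 of 714 in OPC replicates 1 to 4 and 401 of 436 in OL replicate 1. The lists differ in length, so these ranks place a peak within its own library and show no change between stages. The Eef1a1 region nearer to the gene had a peak in OPC replicates 1 and 4, with fold enrichments of 6.42 and 7.01. The farther one had a peak in OPC replicate 4 alone (5.85). No IgG peak overlapped any of the 4 regions, and the nearest lay 9483 kb away, on the chromosome of Fam53c. The IgG libraries held only 117 peaks in OPC and 24 in OL, the latter from 1551203 tags, so an absent overlap says little.

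At Fam53c all OL libraries stood below all OPC libraries. The region held 70, 50, 53 and 105 reads in OPC replicates 1 to 4 and 23, 3 and 8 in OL replicates 1, 2 and 4. As normalised read counts, meaning reads divided by a library factor that makes the bulk of regions comparable, these were 54.2, 45.3, 47.3 and 58.9 in OPC and 18.5, 18.2 and 27.6 in OL. OPC replicate 4 was highest among OPC and OL replicate 4 among OL, with no overlap between the stages. The stage means were 51.4 ± 6.30 and 21.4 ± 5.35 (SD, n = 4 and 3), and the fitted log2 fold change of OL over OPC was -1.33 ± 0.22 (SE). By OPC mean the region ranked high, with 105 of 848 regions and 3 of the 42 other TTS regions above it.

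The Cacng7 region was the steadiest of the set among OPC libraries. It held 48, 38, 41 and 63 reads in OPC replicates 1 to 4 and 22, 2 and 6 in OL replicates 1, 2 and 4. The normalised counts were 37.2, 34.4, 36.6 and 35.3 in OPC, a narrow band, and 17.7, 12.2 and 20.7 in OL. Again the stages did not overlap. The stage means were 35.9 ± 1.23 and 16.8 ± 4.33 (SD, n = 4 and 3), giving a log2 fold change of -1.02 ± 0.22 (SE). The highest raw count, in OPC replicate 4, was not the highest after scaling.

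The Eef1a1 regions did not share 1 pattern. The nearer region held 28, 17, 22 and 43 reads in OPC replicates 1 to 4 and 9, 2 and 2 in OL replicates 1, 2 and 4, or 21.7, 15.4, 19.6 and 24.1 normalised reads in OPC and 7.22, 12.2 and 6.90 in OL. OL replicate 2 came closest to the OPC range, on 2 reads. The stage means were 20.2 ± 3.70 and 8.76 ± 2.95 (SD, n = 4 and 3), with no overlap and a log2 fold change of -1.40 ± 0.34 (SE). The farther region held 6, 9, 3 and 16 reads in OPC and 8, 0 and 3 in OL. Its normalised counts overlapped widely, with OPC at 6.11 ± 2.96 and OL at 5.59 ± 5.23 (SD, n = 4 and 3). It reached 10 reads in 1 library and so was left out of the fit, which asked for 10 or more reads in 3 or more libraries. Only 3 of the 4 regions therefore have a fitted fold change. The nearer Eef1a1 region entered the fit through the 4 OPC libraries alone, as no OL library reached 10 reads there.

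**Figure D2:**
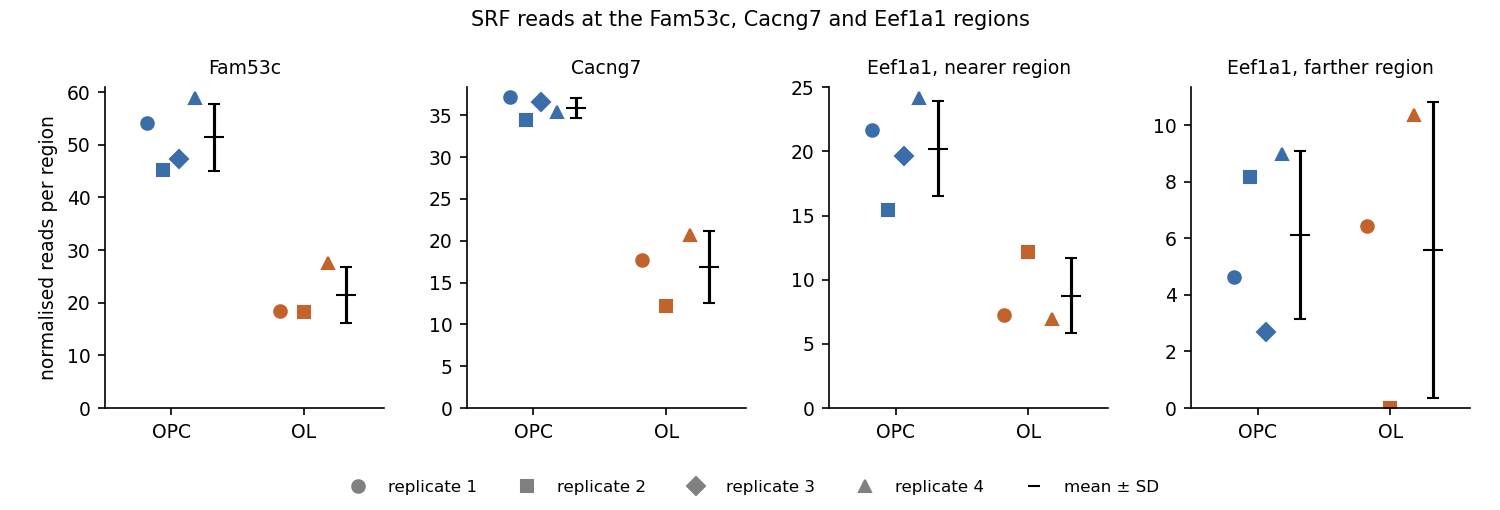
Normalised reads per library at the 4 regions (vertical axes start at 0 and differ between panels), with OPC in blue, OL in orange and 1 marker shape per replicate number. Black marks give the mean ± SD; the stages are apart at Fam53c, Cacng7 and the nearer Eef1a1 region and overlap at the farther one, where OL replicate 2 is at 0.

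Every OL library thus lay below every OPC library at 3 of the 4 regions, all of the 3 that entered the fit. The same separation was found at 75 of all 557 regions fitted (13.5%) and the opposite one at 39 (7%). The 3 genes were picked for this direction, so nothing is read from their count. By the edgeR quasi-likelihood test with Benjamini-Hochberg adjustment 12 of the 557 regions differed (2.15%), of which 10 were lower in OL (1.8%), and by DESeq2 42 differed (7.54%). Fitted with a replicate block, a term for the preparation that a library came from, 0 regions passed by edgeR and 106 were at an unadjusted p below 0.05. The log2 fold changes of the members barely moved with the block, to -1.36 ± 0.26 (SE) at Fam53c, -1.04 ± 0.26 at Cacng7 and -1.44 ± 0.39 at the nearer Eef1a1 region.

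The counts behind these values were few in the shallow OL libraries. The intervals in this account describe counting error alone and, since the genes were picked for fewer reads in OL, are no support for a difference. Fam53c had 3.04 times as many reads in OPC replicate 1 as in OL replicate 1 (exact 95% interval 1.88 to 5.11), Cacng7 2.18 times (1.29 to 3.80) and the nearer Eef1a1 region 3.11 times (1.43 to 7.49). The farther Eef1a1 region had 0.75 times as many (0.214 to 2.46). These ratios compare 2 libraries of nearly equal depth, not the stages. The reads each OL library would hold at the mean OPC level were then computed from its scaling factor. In OL replicate 1 this was 64.1 reads at Fam53c against 23 counted (exact Poisson 95% interval 14.6 to 34.5), 44.7 at Cacng7 against 22 (13.8 to 33.3) and 25.2 at the nearer Eef1a1 region against 9 (4.12 to 17.1). In this library the upper ends of all 3 intervals were below the reads computed from the OPC mean.

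In OL replicate 2 the corresponding values were 8.45 reads at Fam53c against 3 counted (0.619 to 8.77), 5.90 at Cacng7 against 2 (0.242 to 7.22) and 3.32 at Eef1a1 against 2 (0.242 to 7.22). In OL replicate 4 they were 14.9 against 8 (3.45 to 15.8), 10.4 against 6 (2.202 to 13.1) and 5.85 against 2 (0.242 to 7.22). All 6 counts were below the OPC level, and all 6 intervals included it. In OL replicates 2 and 4, which had no peak call there, the 3 regions held 2 to 8 reads. The fitted log2 fold change without OL replicate 1 was -1.08 ± 0.31 (SE) at Fam53c, -1.01 ± 0.34 at Cacng7 and -1.19 ± 0.56 at Eef1a1.

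**Figure D3:**
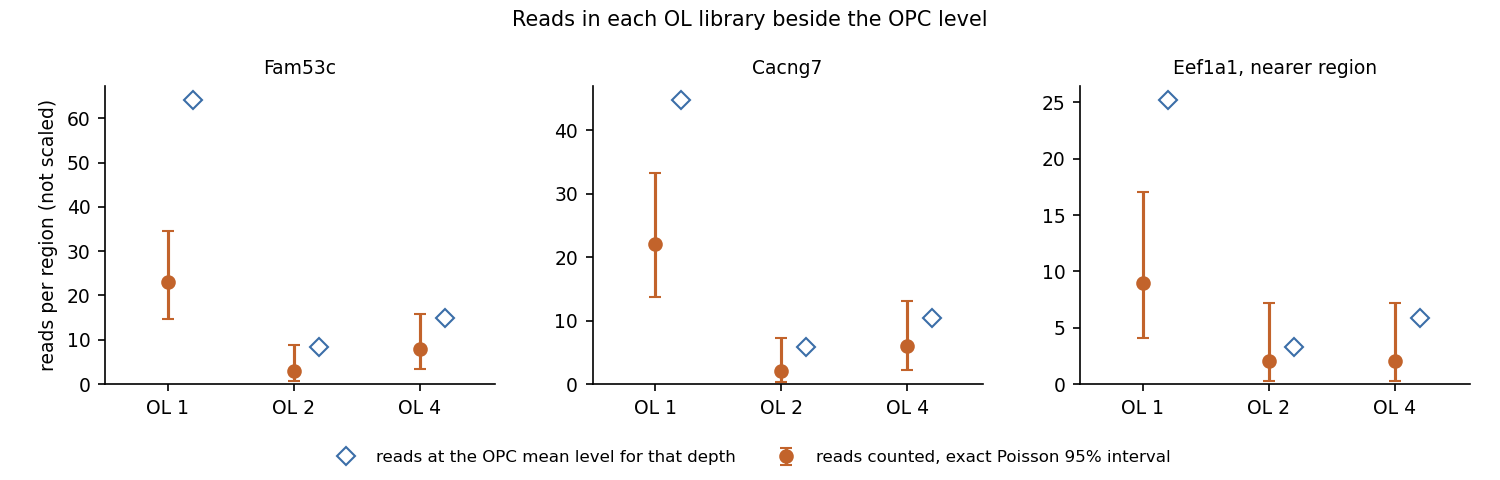
Unscaled reads in the 3 OL libraries (orange points with exact Poisson 95% intervals) beside the reads the same library would hold at the mean OPC level (open blue diamonds); vertical axes start at 0. The diamond is above the interval in OL replicate 1 at all 3 regions and inside it in OL replicates 2 and 4.

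Scaling changed the size of the difference and not its direction, for which the genes had been picked. As reads per 10000 region reads, with no further scaling, OPC and OL stood at 25.4 ± 4.15 and 8.86 ± 2.198 for Fam53c (SD, n = 4 and 3), at 17.6 ± 1.01 and 7.06 ± 2.25 for Cacng7, and for the nearer Eef1a1 region at 9.99 ± 2.22 and 3.56 ± 0.855. As reads per 1000000 tags, the OPC values spread much more, for instance from 2.46 to 11.6 at Fam53c, where OL ran from 1.25 to 2.38. The 3 regions still did not overlap between the stages on either scale, although at Eef1a1 the lowest OPC and highest OL values met at 0.837 and 0.835 reads per 1000000 tags. Scaled to all tags, the median of all 557 regions shifted to -0.35, and relative to it Fam53c stood at -1.32, Cacng7 at -1.01 and Eef1a1 at -1.35 on the log2 scale.

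The other TTS regions were mostly beside small RNA genes. Of the 42, 25 were nearest to a gene of a spliceosomal RNA (U1, U2, U5 or U6), 5 to one of a small nucleolar RNA, 2 to one of 5S ribosomal RNA, 1 to one of a miRNA and 1 to a lincRNA gene, while 8 were nearest to a protein-coding gene. The snRNA regions had their centres 301 to 1085 bp downstream of the start of the snRNA. In 35 of the 42 the transcript end belonged to the same gene as the nearest start, unlike at Fam53c and Cacng7, and in 7 to another. A peak in any OL library was found at 7 of the 42, peaks in 4 OPC libraries at 3, and an IgG peak at 0. Most of this set thus had peaks in OPC libraries alone. The same shares over all 848 regions were not counted, so this is not read as a trait of TTS regions.

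The other TTS regions had mostly lower values in OL, with medians on opposite sides of 0 for small RNA and protein-coding genes. Of the 26 other TTS regions tested, 19 had a log2 fold change below 0, with a median of -0.66, against 282 of all 557 regions (50.6%) and a median of -0.01. The filter asked for 10 reads in 3 of the 7 libraries, so a region could enter through OPC libraries alone. A U2 region (chr10:89570955-89571147) did so, with 14, 10, 7 and 17 reads in OPC and 3, 0 and 1 in OL. All 557 regions passed the same filter, and how often this occurred was not counted. The 21 nearest to a small RNA or rRNA gene had a median of -0.93 with 18 below 0, and the 5 nearest to a protein-coding gene a median of 0.10 with 1 below 0. The 23 tested regions nearest to a small RNA or rRNA gene but not annotated as TTS had a median of 0.30, with 10 below 0. Their values ran from -2.20 to 1.57, so low values were not confined to TTS regions. Of these 23, 2 were lower and 0 higher by edgeR, beside 10 and 2 of all 557 regions. Every OL library lay below every OPC library at 6 of the 23 and above at 0, beside 75 and 39 of the 557. This split was made after the values were seen, and the difference between the medians was not tested. By edgeR 4 of the 26 were lower and 0 higher (12 at an unadjusted p below 0.05, and 5 lower by DESeq2), which fell to 0 with the replicate block. They were regions of a U2 gene (chr9:79597529-79597843, log2 fold change -1.82 ± 0.30, edgeR adjusted p = 0.0165), SNORD81 (chr13:78856789-78857538, -1.65 ± 0.28, adjusted p = 0.0165) and a pair of U5 genes (chr5:136058131-136058535, -1.60 ± 0.34, and chr8:70701296-70701581, -1.38 ± 0.26, adjusted p = 0.0368 and 0.0328). DESeq2 added a U2 region (chr10:89540279-89540778, -1.31 ± 0.30). U1, U2 and U5 genes have near-identical copies, so the placement of their reads is uncertain.

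On the fold change scale Fam53c and Cacng7 sat among these snRNA regions when set against TTS regions alone, most of which were at small RNA genes. Promoter regions also spanned these values, from -2.39 to 1.28, so the place on this scale is not particular to snRNA regions. Just below Fam53c stood U2 (chr9:79560855-79561149, -1.47 ± 0.46) and the U5 region of chromosome 8, and just above it the U2 region of chr10:89540279-89540778 and a U5 region (chr13:89883363-89883648, -1.15 ± 0.42). Just below Cacng7 stood that same U5 region and a U2 region (chr10:89571182-89571431, -1.03 ± 0.49), and just above it U2 (chr10:89539748-89540100, -1.02 ± 0.28) and U1 (chr2:198528493-198529116, -0.93 ± 0.23). Among the 26 TTS regions, those whose log2 normalised reads followed Fam53c most closely over the 7 libraries were the U2 region of chromosome 9 (Pearson r = 0.97), and the U5 regions of chromosomes 5 (0.96) and 8 (0.92). For Cacng7 they were 2 U2 regions of chromosome 10 (0.97 at chr10:89540279-89540778 and 0.95 at chr10:89570955-89571147) and the U2 region of chromosome 9 (0.95). For the nearer Eef1a1 region they were U5 on chromosome 8 (0.91), SNORD81 (0.90) and U2 on chromosome 9 (0.90). These values are given with no p, since the libraries fall into 2 stages and share depth and scaling. Fam53c and Cacng7 themselves had r = 0.96. The members were picked for fewer reads in OL, so any region lower in OL follows them in part through that choice. No shared behaviour is read from these correlations.

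**Figure D4:**
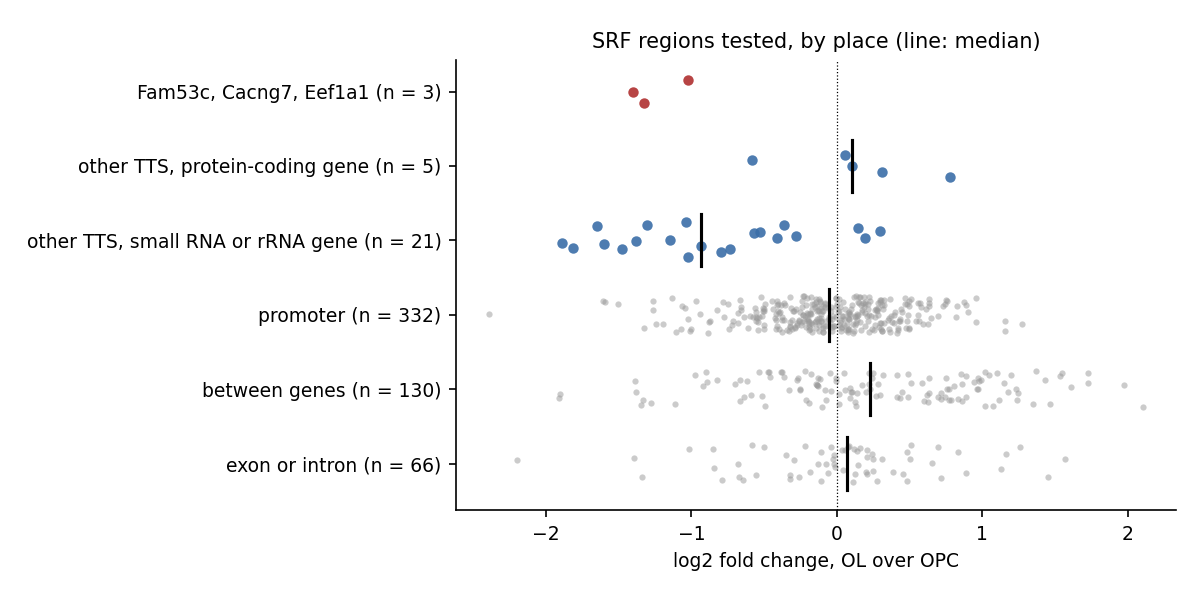
Log2 fold change of OL over OPC (horizontal axis) for the 557 tested regions, grouped by place; each point is 1 region and black lines are medians. The 3 chosen regions (red, no median drawn) lie between -1.40 and -1.02. This is in the range of TTS regions at small RNA genes, of promoters and of regions between genes, and below the 5 TTS regions at other protein-coding genes.

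Among the other protein-coding genes with a TTS region, the lowest fold change was that of Polr2f. The site past the end of Junb, an AP-1 transcription factor gene, held 44, 38, 27 and 69 reads in OPC replicates 1 to 4 and 46, 6 and 8 in OL replicates 1, 2 and 4 (32.8 ± 6.20 and 33.7 ± 5.25 normalised, SD, n = 4 and 3). The log2 fold change was 0.06 ± 0.23 at Junb, 0.31 ± 0.31 at Sf3a3 (a splicing factor) and 0.77 ± 0.33 at Sertad1 (a transcriptional coregulator). Polr2f, which encodes a subunit shared by RNA polymerases, stood at -0.58 ± 0.35, where OPC averaged 21.1 ± 5.93 and OL 11.7 ± 4.93 normalised reads. Of the 5 tested regions at protein-coding genes 0 passed by edgeR (adjusted p from 0.204 to 0.937; 1 at an unadjusted p below 0.05) or by DESeq2. That of Sf3a3 was, like those of Fam53c and Cacng7, at the end of a gene other than the nearest one. Regions of Dus1l, LOC681367 and Tuba1a held too few reads for the fit. By the mean over all 7 libraries, the highest normalised counts of the other TTS regions were a pair at a 5S rRNA gene on chromosome 19 (106 ± 32.6 and 98.7 ± 32.1 in OPC, 131 ± 12.98 and 112 ± 25.2 in OL), followed by a U2 region (chr10:70489692-70490739, 73.2 ± 9.66 and 51.5 ± 19.6), Junb and the U1 region of chromosome 2 (40.6 ± 6.42 and 19.6 ± 3.23).

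The share of region reads that fell in the other TTS regions gives 1 value per library that does not contain the chosen regions. The regions summed here were defined mostly by peaks of OPC libraries, a choice that can itself favour a lower share in OL. No conclusion is therefore drawn from the difference between the stages. The share was 4.24, 4.30, 4.03 and 4.06% in OPC replicates 1 to 4 and 3.02, 2.55 and 2.65% in OL replicates 1, 2 and 4. Every OL value was below every OPC value. The means were 4.16 ± 0.137% (SD, n = 4) and 2.74 ± 0.247% (SD, n = 3), a difference of -1.42 percentage points (exact permutation test, two-sided, p = 0.0571). This permutation has 35 splits and does not use the pairing by preparation. In the two-sided form used, its smallest possible p is the one given, so it could not have passed 0.05. That floor belongs to this form of the test and not to the 35 splits alone. Since the stages did not overlap, the OL value was also the lower one in all 3 pairs of the same preparation (replicates 1, 2 and 4), which adds no support.

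Near Fam53c the OL means were higher than the OPC means, without passing the test. The closest other region, 98178 bp away, was the promoter site of Egr1, an immediate early transcription factor gene (chr18:27656864-27657669). OPC libraries averaged 162 ± 12.1 normalised reads there and OL libraries 258 ± 88.0 (SD, n = 4 and 3). The log2 fold change, 0.63 ± 0.27, did not pass (edgeR adjusted p = 0.203). Beyond it a 5S rRNA region with a peak in 7 libraries (chr18:27681940-27682378) averaged 43.0 ± 7.95 and 96.0 ± 42.1, which also did not pass (0.98 ± 0.31 on the log2 scale, adjusted p = 0.107 by edgeR), and a second one near it held too few reads for the fit. The difference between these fold changes and that of Fam53c was not tested.

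Around Eef1a1 no region but its own pair was found within 200 kb.

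Relatives of the 3 genes had few regions. Of 31 genes of translation initiation and elongation 4 had a consensus region, Eef1a1 among them. Pabpc1, which encodes a poly(A)-binding protein, had a promoter site with a peak in 6 libraries, where OPC averaged 44.1 ± 5.81 and OL 45.8 ± 9.36 normalised reads (SD, n = 4 and 3; 0.08 ± 0.19 on the log2 scale, adjusted p = 0.878 by edgeR). Eif3c, an initiation factor subunit gene, had 18.2 ± 7.24 and 22.4 ± 4.52 at its promoter (0.43 ± 0.39, adjusted p = 0.614 by edgeR), and the promoter region of Eif2s2 held too few reads for the fit. Of these 2 tested regions 0 passed in either direction by edgeR, 0 were at an unadjusted p below 0.05 and 0 passed by DESeq2. Of 18 genes of AMPA receptor and calcium channel auxiliary subunits only Cacng7 had a region, and of the 3 FAM53 genes only Fam53c.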

How the data were processed

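Per the submitters' processing notes, Trim Galore, BWA, MACS2, HOMER and deepTools were used with Rnor_6.0. Peak calling by the authors used MACS 2.2.7.1, library by library with an input as control, a q-value of 0.05 and duplicates kept, per the file headers; the deposited tables give the pileup signal, the fold enrichment ratio and the −log10 of p and q. The deposited counts are raw reads over consensus regions from featureCounts 2.0.1, per the file headers. No depth normalization was applied to them by the authors, and treatment of multiply placed reads is not stated there. Files named as the third OL replicate belong to the sample labelled OL replicate 4.

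The fit took regions where 3 or more of the 7 libraries reached 10 reads. It used edgeR 4.0.16 (R 4.3.3; TMM over regions; quasi-likelihood test, Benjamini-Hochberg over 557 regions) and, as an alternative, DESeq2 1.42.0. Each edgeR SE was the absolute log2 fold change divided by the square root of the quasi-likelihood F statistic. At the members it restates that statistic and is no support for a difference. A peak within a region meant an overlap of at least 1 bp. Start sites came from the deposited distances. Exact tests and intervals used scipy 1.17.1; intervals cover counting error only. The pairing by replicate number rests on the labels' protocols, which divide each preparation between the stages; deviations of same-numbered libraries correlated at 0.08, 0.23 and 0.17 (numbers 1, 2 and 4).

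The genes, lists and rules were chosen with earlier results of these data known. Named TTS regions are those passing by edgeR or DESeq2, the 5 with the highest mean, the 2 tested regions on either side of each TTS member in fold change and the 3 best correlated with each tested member (pseudocount 0.5); protein-coding TTS genes were named after their values were seen. Regions within 200 kb and related genes were also named. Results that need certain withheld genes are not reported here. RefSeq tables (GRCr8) were matched by symbol, 2 of 3 genes having a promoter window.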

Additional observations from a re-analysis of the deposited data

Results flagged for a closer look

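Among the 4 OPC libraries, 1 of 35 sets of values had a library far from the rest. At the TTS region of a U6 gene on chromosome 5, OPC replicate 3 had 21.4 normalised reads against 10.9 in the next highest library. Chance sets apart about 1 in 20 such groups.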

How the results depend on the processing

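The members' log2 fold changes stayed below 0 in all 15 alternatives fitted, between -1.67 and -1.08 at Fam53c, -1.36 and -0.95 at Cacng7 and -1.71 and -1.19 at the nearer Eef1a1 region; those furthest from the value reported, -1.67 and -1.36 at Fam53c and Cacng7, came from scaling to all tags. With no filter the farther Eef1a1 region had 0.03. Leaving out 1 library gave -1.49 to -1.08, -1.10 to -0.95 and -1.51 to -1.19. The genes were picked for fewer reads in OL in these same libraries, so the constant sign is no support for a difference. The count of 12 regions differing between OL and OPC was 42 by DESeq2 (29 higher, 13 lower in OL), 0 scaled to all tags, 22 with no filter on low counts, 19 with at least 20 reads in 3 libraries, 35 among reproducible sites (17 higher, 18 lower), 0 with the replicate block, 1 without both shallow OL libraries and 1 to 31 leaving out 1 library. Leaving out OL replicate 1 gave 31, of which 28 were higher, OL replicate 2 gave 7 and OL replicate 4 gave 6, while OPC replicates 1, 2 and 4 gave 4, 4 and 1. The count of 4 other TTS regions was 0 scaled to all tags, 7 with no filter, 0 with the replicate block, 0 without both shallow OL libraries and 0 to 4 leaving out 1 library (0 without OPC replicate 4, 1 without OL replicate 1, 2 without OPC replicate 1 or 2); the cause was not tested. Their median log2 fold change ranged from -0.98 to -0.48. The mean share of region reads in other TTS regions stayed lower in OL, by -1.56 to -1.32 percentage points leaving out 1 library. As a percent of all tags, of which 0.116 to 0.379% fell in any region, the means differed by -0.00366 points (exact permutation p = 0.171). The stages overlapped on that scale, where OPC replicate 2 stood below OL replicates 1 and 4. Peaks with q at or below 0.001, or overlap of at least 50% of the peak, also gave 13 libraries with a peak summed over the members. Depth limits the OL values, as OL replicates 2 and 4 held 0 to 8 reads at each member.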
